A study of Solanum lycopersicum with 10 samples.

Results

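The nuclear genes for chlorophyll a/b-binding proteins and for subunits of photosystems I and II were followed across 5 tissues of tomato. They were selected by identifier, from a list of 46 Solyc identifiers. No measured value was part of the rule, but earlier results of these data were known when the list was chosen. The deposited tables of 35288 genes held 44 of them, and the listed identifiers Solyc03g005790 and Solyc05g056070 had no row. All 44 passed the filter on low counts. RNA-seq had been carried out on the cultivar Ailsa Craig (AC), with the aim of finding a promoter active in the exocarp, the outer peel of the fruit. The tissues were the exocarp and the underlying mesocarp at the mature green stage (30 days post-anthesis), the same 2 tissues at the red ripe stage (7 days post-breaker), and leaves, which had been pooled over the stages. Each tissue was represented by 2 biological replicates, no treatment was applied, and all plants carried the same AC background. The leaf libraries stand for a pool of stages, so no leaf value belongs to one fruit stage.

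Light-harvesting proteins bind chlorophyll in the thylakoid membrane of the chloroplast and pass absorbed light energy to the reaction centres of photosystems I and II. Photosystem II oxidizes water and photosystem I reduces ferredoxin, and both are built from chloroplast-encoded core proteins and nuclear-encoded subunits that are imported after translation. Green tomato fruits hold photosynthetically active chloroplasts, which become carotenoid-rich chromoplasts as the fruit ripens. Neither the deposited tables nor the reference table used here pair a single Solyc identifier with a gene symbol, so the members are named by identifier, without the version suffix, and no single member is assigned to a photosystem.

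Total counts ranged from 30945619 to 45637676 per library, so that the floor of 3 counts used here corresponded to a CPM (count scaled to the library total) between 0.0657 and 0.0969. Differences were tested with the quasi-likelihood test of edgeR after TMM scaling, which balances the libraries on the bulk of their genes, and were called at an adjusted p under 0.05 over the 22801 genes tested. The tissue labels were checked with marker lists compiled from general knowledge. All 4 cuticle genes were higher in exocarp than in mesocarp at both stages, and all 5 ripening genes were higher in red than in green fruit in both tissues. The 3 exocarp genes that the study picked from these same libraries were also higher in exocarp at both stages, which is no independent check. The replicates of green exocarp stood apart. Among 11630 genes with at least 10 CPM, 417 differed at least 2-fold between them, against 6 of 11539 genes in green mesocarp, 79 of 10721 in red exocarp, 4 of 10695 in red mesocarp and 26 of 12038 in leaves. Since this bears on the members directly, results that turned on one green exocarp library are given below with and without it.

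The 44 genes together made up a large part of the leaf transcriptome and a small part of the fruit transcriptome. In leaves they held 10.8% of all counts in both libraries. In green mesocarp the share was 1.08% and 1.07%, and in green exocarp 0.893% in replicate 1 and 0.625% in replicate 2. In red fruit the share was 0.151% and 0.175% in exocarp and 0.116% and 0.112% in mesocarp. The libraries of no 2 tissues overlapped in this share, and the order ran from leaves through green mesocarp, green exocarp and red exocarp to red mesocarp. With 2 libraries on each side the smallest two-sided p of an exact permutation test is 0.333, so the sums were not tested. Expressed per gene length, the summed FPKM, a fragment count scaled by transcript length and library size, was 101289 and 101630 in leaves, 10598 and 10348 in green mesocarp, 8524 and 5889 in green exocarp, 1140 and 1342 in the red exocarp and 849 and 822 in red mesocarp. Fewer chloroplast-bearing cells and less transcript per cell cannot be told apart in such bulk samples.

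**Figure D1:**
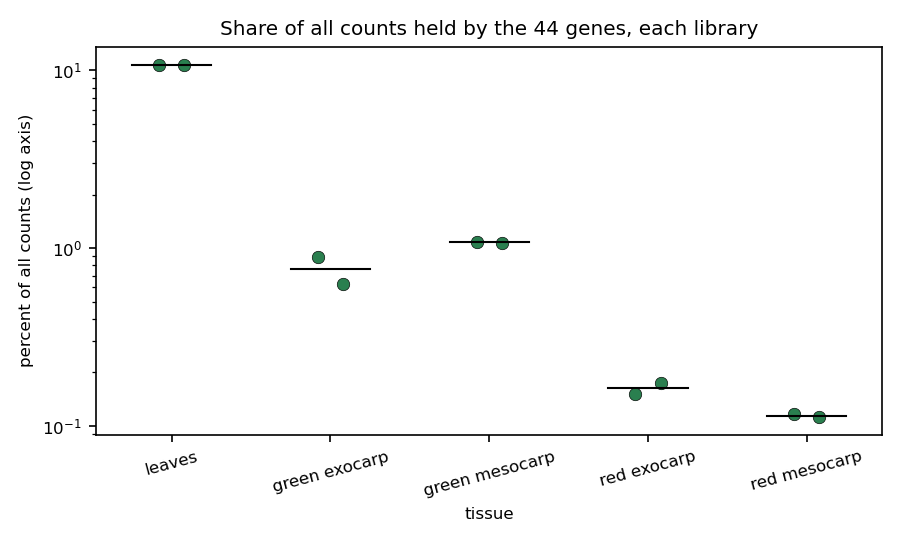
Share of all counts held by the 44 genes in each library, in percent on a log axis. Points are libraries and lines are the means of 2 libraries. Leaves sit at 10.8%, green fruit between 0.625% and 1.08% and red fruit between 0.112% and 0.175%.

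The 5 members with the highest FPKM averaged over the tissues differed in how far their fruit levels lay below the leaf level. Solyc03g005760 reached an FPKM of 7862 and 7959 in leaves, 3600 and 3479 in green mesocarp, 1803 and 1412 in green exocarp, 42.7 and 60.7 in the red exocarp and 34.2 and 32.3 in red mesocarp. It was the highest member in leaves and in both green tissues. Solyc10g006230 was at 6462 and 6379 in leaves, 661 and 644 in green mesocarp, 601 and 481 in green exocarp, 22.7 and 37.4 in the red exocarp and 10.7 and 9.39 in red mesocarp. Solyc07g047850 was at 6264 and 6447 in leaves, 282 and 277 in green mesocarp, 395 and 195 in green exocarp, 23.9 and 25.8 in the red exocarp and 11.2 and 10.5 in red mesocarp. For this gene the libraries of green exocarp lay on either side of those of green mesocarp. Solyc02g070940 was at 5549 and 5496 in leaves, 666 and 619 in green mesocarp, 628 and 388 in green exocarp, 9.43 and 14.1 in the red exocarp and 3.31 and 4.61 in red mesocarp. Solyc06g063370 was at 4591 and 4520 in leaves, 618 and 607 in green mesocarp, 546 and 407 in green exocarp, 192 and 201 in the red exocarp and 111 and 99.8 in red mesocarp. It kept the highest red fruit level of these 5 genes. At the other end, Solyc06g069000 was the lowest member in leaves, with an FPKM of 3.73 and 3.33 there, 1.996 and 1.09 in green mesocarp and 0.689 and 0.159 in green exocarp, and it had no count in red fruit.

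**Figure D2:**
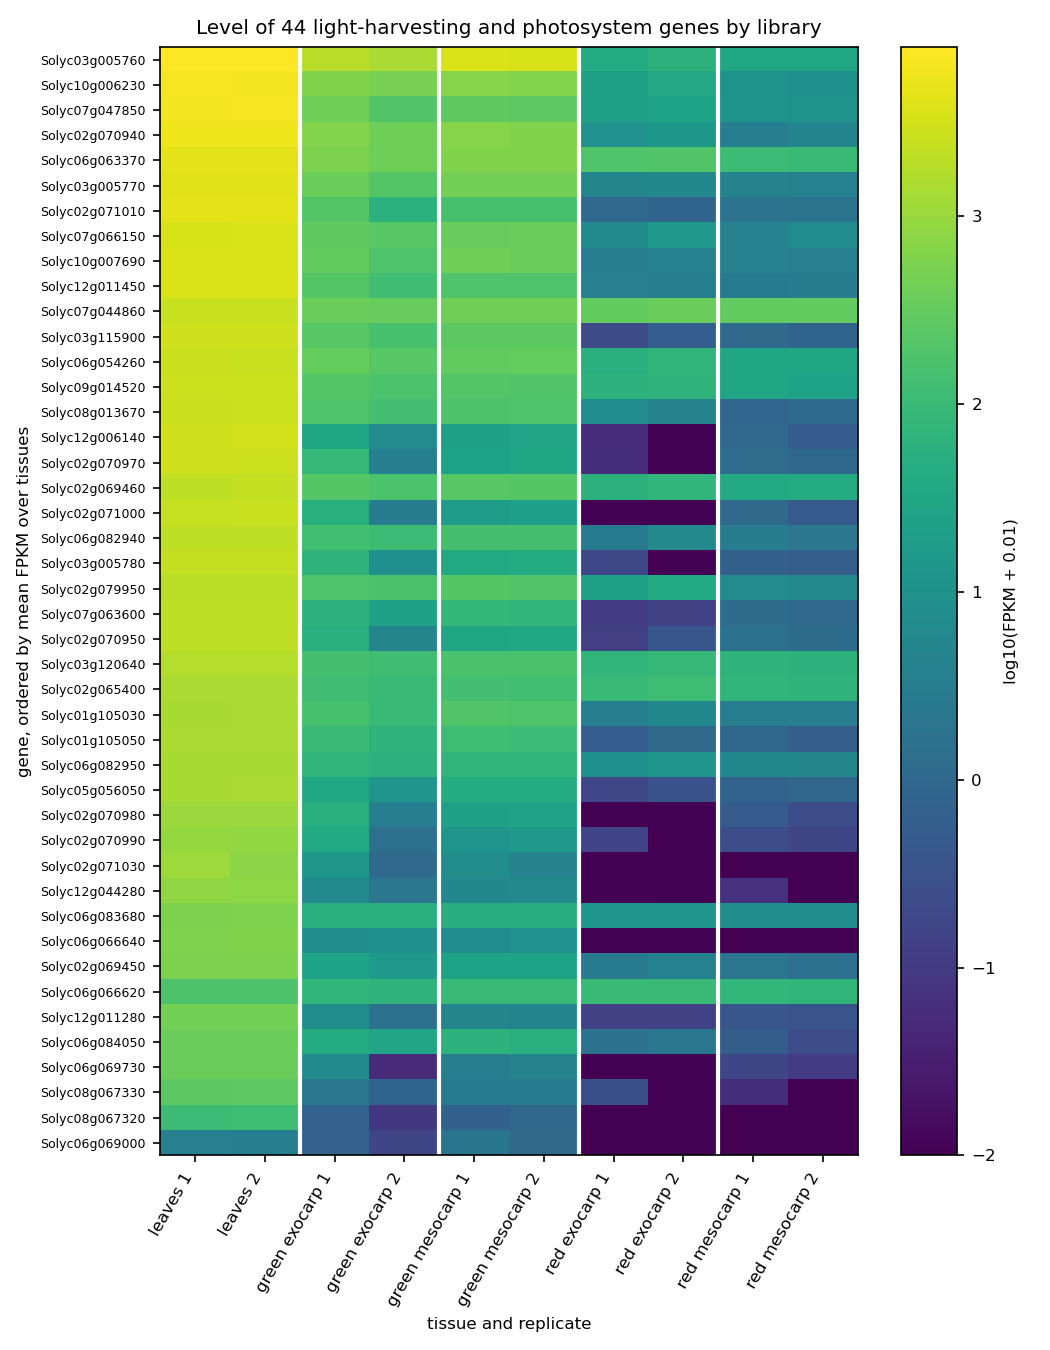
Level of each of the 44 genes in each of the 10 libraries as log10(FPKM + 0.01), with genes ordered by their mean over the tissues and white lines between tissues. Leaves are the brightest columns, and in red fruit most genes are dark while a few, such as Solyc07g044860 and Solyc06g066620, stay near their level in green fruit. The second green exocarp column is darker than the first for many genes.

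The comparison with leaves asked how far each fruit tissue stood from a photosynthetic organ. All 4 comparisons use the same leaf libraries and are not independent of one another. In green exocarp all 44 members were lower than in leaves, where 36.4% of all genes tested were called lower, and the members' median log2 fold change was -4.44 against -0.02 over all genes. Without replicate 1 of green exocarp the members' median was -4.67 and without replicate 2 it was -4.25. In green mesocarp 43 of 44 were lower, beside 35.8% of all genes, with a median of -4.32. The exception was Solyc06g069000, with a log2 fold change of -1.61 (SE 0.62, adjusted p = 0.0581), whose green mesocarp libraries held 82 and 45 counts and whose leaf libraries held 169 and 144. In red exocarp all 44 were lower than in leaves, beside 40.2% of all genes, and in red mesocarp all 44, beside 41.6%. The members' medians were -9.78 and -10.34 in red exocarp and red mesocarp, or -8.90 and -9.95 when members at or under 3 counts in every red library of the tissue were set to their bound. By edgeR or DESeq2 no member was higher in any fruit tissue than in leaves, and at an unadjusted p under 0.05 the count was also 0. For scale, the shares of all genes called higher at the adjusted p were 34.6% for green exocarp, 32.7% for green mesocarp, 35.7% for red exocarp and 35% for red mesocarp. The leaf libraries lay above all libraries of the fruit tissue for all 44 members in each of the 4 comparisons. The share of all genes with libraries apart in this way was not counted.

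The distance from leaves varied widely among the members. The median member stood at 5.73% of its leaf FPKM in green exocarp, at 6.72% in green mesocarp, at 0.113% in red exocarp and at 0.0755% in red mesocarp. In red exocarp 34 of the 44 members were under 1% of their leaf level, and in red mesocarp 36 were, against 6 in green exocarp and 7 in green mesocarp. Solyc06g066620 was the closest to its leaf level in each fruit tissue, at 40.5% in green exocarp, 52.2% in green mesocarp, 55.0% in red exocarp and 44.8% in red mesocarp. Its FPKM was 175 and 182 in leaves, 76.5 and 68.0 in green exocarp, 93.3 and 93.0 in green mesocarp, 96.3 and 100 in red exocarp and 82.3 and 77.5 in red mesocarp. The fitted log2 difference from leaves ranged for this gene from -0.85 (SE 0.07, adjusted p = 7.89e-06) in red exocarp to -1.62 (SE 0.07, adjusted p = 3.08e-07) in green exocarp. The largest difference from leaves in green exocarp was that of Solyc08g067320, at -8.33 (SE 0.47, adjusted p = 8.93e-06), whose FPKM was 114 and 120 in leaves and 0.717 and 0.0809 in green exocarp. Its value was -10.46 without replicate 1 of green exocarp and -7.50 without replicate 2. In green mesocarp the largest was that of Solyc02g071030, at -7.67 (SE 1.01, adjusted p = 0.000609), with an FPKM of 1084 and 754 in leaves and 7.73 and 4.35 in green mesocarp.

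Between the mature green and the red ripe stage most members differed by a large factor in both fruit tissues. In exocarp 41 members were higher in green than in red fruit and 1 was lower, beside 32.2% and 29.7% of all genes. In mesocarp 41 were higher and 1 was lower, beside 31.8% and 28.2% of all genes. The members' median log2 fold change, green over red, was 4.97 in exocarp and 5.41 in mesocarp, or 4.57 and 4.98 with members at the floor set to their bounds, while the medians over all genes were 0.00 and 0.02. Without replicate 1 of green exocarp the members' median in exocarp was 4.13, and without replicate 2 it was 5.43. Scaling by library totals moved the median of all genes by 0.28 in exocarp and 0.39 in mesocarp, and the members' medians were then 5.23 and 5.79. The median member kept 2.43% of its green FPKM in red exocarp and 1.70% in red mesocarp.

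Among the 5 most abundant members the stage differences spanned a wide range. Solyc02g070940 was higher in green fruit by a log2 fold change of 5.10 (SE 0.29) in exocarp and 6.93 (SE 0.32) in mesocarp. For Solyc03g005760 the values were 4.63 (SE 0.19) and 6.31 (SE 0.21). Solyc10g006230 followed with 3.84 (SE 0.23) and 5.596 (SE 0.26), and Solyc07g047850 with 3.24 (SE 0.28) and 4.26 (SE 0.29). Solyc06g063370 differed least, by 0.95 (SE 0.13) in exocarp and 2.12 (SE 0.13) in mesocarp. For all 5 genes every green library lay above every red library of the same tissue, and the adjusted p-values were at or below 0.000228.

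A few members kept more than 50% of their green FPKM in red fruit, 4 in exocarp and 3 in mesocarp. Solyc07g044860 had an FPKM of 373 and 345 in green exocarp, 312 and 366 in the red exocarp, 421 and 414 in green mesocarp and 299 and 302 in red mesocarp. Its red FPKM was 94.3% of the green in exocarp and 71.9% in mesocarp. Its log2 fold change after TMM scaling was not called, at -0.24 (SE 0.09, adjusted p = 0.0561) in exocarp and 0.05 (SE 0.09, adjusted p = 0.68) in mesocarp. Solyc02g065400 was at 123 and 103 in green exocarp, 93.4 and 115 in the red exocarp, 135 and 128 in green mesocarp and 71.3 and 67.7 in red mesocarp. It was not called in exocarp, at -0.21 (SE 0.12, adjusted p = 0.15), and was higher in green mesocarp by 0.49 (SE 0.12, adjusted p = 0.00655). In the fit of all libraries Solyc06g066620 was the only member called in the opposite direction, with a log2 fold change, green over red, of -0.76 (SE 0.07, adjusted p = 2.39e-05) in exocarp. In mesocarp the value was -0.20 (SE 0.07, adjusted p = 0.0367), which turned to 0.19 with library totals and was not called by DESeq2. The other member not called in mesocarp was Solyc06g069730, at 4.27 (SE 1.65, adjusted p = 0.0572), with 111 and 149 counts in green and 9 and 4 in red mesocarp. With library totals in place of TMM, 43 members were called higher in green than in red mesocarp, against 41 with TMM. The share of all genes called with library totals was not counted.

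In red fruit part of the set fell to the limit of detection. Solyc02g071030, Solyc06g066640, Solyc06g069000 and Solyc08g067320 had no count in any of the 4 red libraries. Red exocarp had 8 members at 0 in both libraries and 10 at 3 counts or fewer, and red mesocarp had 4 and 6. Solyc02g071000 showed the largest fitted difference between green and red exocarp. It held 1735 and 102 counts in green exocarp and none in red exocarp, a difference of at least 246-fold. That bound rested mainly on replicate 1, since it was 28.2-fold from replicate 2 alone and 464-fold from replicate 1 alone, a split by library that was chosen after seeing the data. In mesocarp the largest fitted difference was that of Solyc06g066640, which held 193 and 247 counts in green and none in red mesocarp and was at least 70.9-fold higher in green. Both bounds were taken against 3 counts per library, and cover counting error only. Against leaves the bounds were wider, since Solyc12g006140, with 118868 and 115572 counts in leaves and 3 and 0 in red exocarp, was at least 44660-fold lower in red exocarp. Solyc02g071000 and Solyc02g071030 gave the largest fitted differences from leaves in red exocarp and red mesocarp, and were at least 27639-fold and at least 10677-fold lower there.

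Because the members kept such different parts of their green level, the make-up of the set changed between tissues. In leaves the summed FPKM was spread over many genes, and the 5 highest members held 30.3% of it in both libraries. The 5 highest held 46.6% and 51.5% in green exocarp, 56.7% and 56.1% in green mesocarp, 67.6% and 64.7% in red exocarp and 74.5% and 74.4% in red mesocarp. The effective number of members, the inverse of the summed squared shares, was 27.0 and 26.9 in leaves, 13.3 and 11.2 in green exocarp, 7.24 and 7.37 in green mesocarp, 7.48 and 7.87 in red exocarp and 5.85 and 5.598 in red mesocarp. Solyc03g005760 alone held 7.80% ± 0.0496 (SD, n = 2) of the sum in leaves, 22.6% ± 1.999 in green exocarp and 33.8% ± 0.247 in green mesocarp. In red fruit its share was 3.75% and 4.52% in exocarp and 4.03% and 3.93% in mesocarp.

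The first place in red fruit went to Solyc07g044860, which held 27.3% ± 0.0719 (SD, n = 2) of the summed FPKM in exocarp and 36.0% ± 1.07 in mesocarp, against 2.46% in leaf replicates 1 and 2. It was followed by Solyc06g063370 with 15.9% ± 1.30 and 12.6% ± 0.633. Solyc02g065400, Solyc06g066620 and Solyc03g120640 each held between 6.47% and 9.70% in every red library. The 5 highest members were the same in both red tissues, whereas red exocarp shared 2 of them with green exocarp and red mesocarp shared 1 with green mesocarp. Ranked by mean FPKM over the 44 members, the tissues gave a Spearman coefficient of 0.99 between green exocarp and green mesocarp, 0.95 between red exocarp and red mesocarp, 0.42 between red exocarp and leaves and 0.53 between red mesocarp and leaves, as a description over genes of the same libraries.

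**Figure D3:**
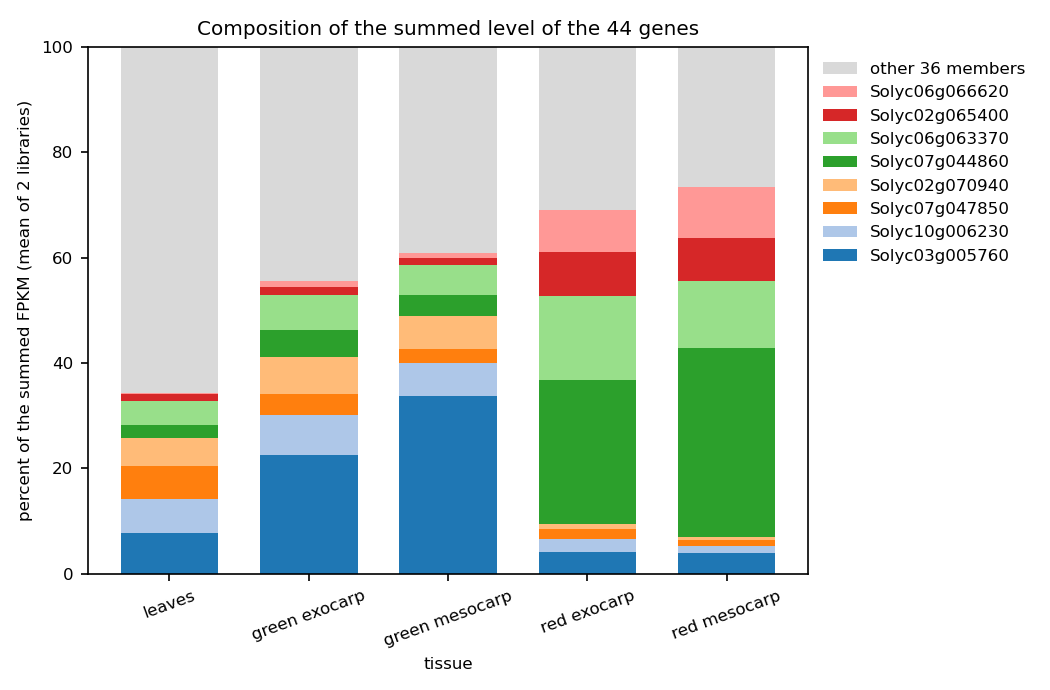
Share of the summed FPKM of the 44 genes held by single members in each tissue, in percent, as the mean of 2 libraries. Members among the 3 highest of any tissue are coloured and the other 36 are grey. Solyc03g005760 is the largest coloured part in green fruit, at 22.6% and 33.8%, and Solyc07g044860 in red fruit, at 27.3% and 36.0%.

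Several members stand next to each other in the identifier order of a chromosome, and such neighbours did not share one pattern. They were grouped by identifier only, and whether neighbours are copies of one gene was not examined. With at most 30 between neighbouring identifier numbers there were 7 groups holding 21 of the 44 members, and the members lay on 10 chromosomes, with 12 on chromosome 2 and 10 on chromosome 6. How reads that fit several copies were counted is not given in the sources used here, so the split between close copies is uncertain. The largest group, of 8 members on chromosome 2, ran from Solyc02g070940 to Solyc02g071030. In leaves Solyc02g070940 held 26.9% of the group's FPKM, Solyc02g071010 22.1% and Solyc02g070970 14.2%. In green fruit Solyc02g070940 held 69.7% of the group in both exocarp and mesocarp. The even value for exocarp hides its libraries, in which the share was 55.6% and 83.8%, while in mesocarp it was 71.0% and 68.5%. In red exocarp Solyc02g070940 held 87.6% and 92.4% of the group, and in red mesocarp 34.2% and 48.9%. In red mesocarp Solyc02g071010 held 18.8% of the group, Solyc02g070950 14.6% and Solyc02g070970 11.3%.

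The group of 3 on chromosome 3 was more uneven in fruit than in leaves. Solyc03g005760 held 54.2% of the group's FPKM in leaves, 83.5% in green exocarp, 87.5% in green mesocarp, 90.1% in red exocarp and 87.6% in red mesocarp. Solyc03g005780 held 15.8% in leaves, at an FPKM of 2296 and 2316, against 38.8 and 43.5 in green mesocarp and 67.3 and 9.08 in green exocarp. The pair Solyc06g066620 and Solyc06g066640 changed order between leaf and fruit. Solyc06g066640 held 76.8% of the pair in leaves, at an FPKM of 582 and 597, but 10.6% in green exocarp, 8.42% in green mesocarp and none in red fruit. The pair Solyc06g082940 and Solyc06g082950 changed order at ripening. Solyc06g082940 held 61.9% in leaves, 63.8% in green exocarp and 65.7% in green mesocarp, and 28.1% in red exocarp and 31.2% in red mesocarp. In the pair Solyc01g105030 and Solyc01g105050 the former held 49.9% in leaves, 59.4% in green exocarp, 62.5% in green mesocarp, 85.0% in red exocarp and 81.3% in red mesocarp. Solyc02g069460 held 80.3% of its pair with Solyc02g069450 in leaves and between 89.5% and 96.0% in the fruit tissues. The last pair, Solyc08g067320 and Solyc08g067330, was at or near the floor in red fruit.

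The comparison of exocarp with mesocarp within a stage asked which members distinguish the peel from the tissue below it. At the mature green stage few were called. Of the 44 members 1 was higher and 3 were lower in exocarp, beside 17.3% and 19% of all genes, and the median log2 fold change was -0.15. Solyc03g005760 was lower by a log2 fold change of -1.02 (SE 0.17, adjusted p = 0.00197), with 1803 and 1412 FPKM in exocarp and 3600 and 3479 in mesocarp. Solyc06g084050 was lower by -0.62 (SE 0.19, adjusted p = 0.0302), with 42.2 and 28.2 FPKM in exocarp and 63.7 and 53.9 in mesocarp, and Solyc06g066620 by -0.25 (SE 0.07, adjusted p = 0.0261). Solyc06g083680 was higher by 0.27 (SE 0.07, adjusted p = 0.0173), with 50.9 and 52.9 FPKM in exocarp and 47.6 and 46.2 in mesocarp. Of these 4 calls, those of Solyc06g084050, Solyc06g066620 and Solyc06g083680 were lost without replicate 2 of green exocarp, where the log2 fold changes were -0.39 (adjusted p = 0.0599), -0.20 (adjusted p = 0.0952) and 0.21 (adjusted p = 0.0692). Without replicate 1 they were -0.91 (adjusted p = 0.000907), -0.31 (adjusted p = 0.0145) and 0.32 (adjusted p = 0.0092). Calls among these 4 were also lost when either green mesocarp library or either leaf library was left out. For 24 members the libraries of green exocarp and green mesocarp overlapped, a count that was not made over all genes. The ripening genes differed between these tissues as well, with a summed TMM-scaled CPM of 65.1 and 49.3 in green exocarp and 181 and 314 in green mesocarp, and their part in the members' values was not tested.

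This low count went together with the difference between the green exocarp replicates. After TMM scaling 17 of 44 members were at least 2-fold higher in replicate 1 than in replicate 2, 7 were at least 10-fold higher, and none was 2-fold lower. Replicate 2 lay below both green mesocarp libraries for 42 members. Replicate 1 lay above both for 22 members, and for 21 members both held at once. The shares of all genes in these positions were not counted. Among genes with at least 10 CPM, 62 of 11630 (0.533%) were at least 2-fold higher in replicate 1, and 10 of these were among the 36 members at that level. In the other direction 355 genes were at least 2-fold higher in replicate 2, and 0 of them were members. At least 10-fold higher were 6 genes, of which 5 were members. In each of the other 4 tissues, no member with at least 10 CPM was 2-fold apart between replicates.

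The members that split the replicates were largely those that were low in fruit relative to leaves. Solyc06g069730 held 270 counts in replicate 1 and 2 in replicate 2, while its green mesocarp libraries held 111 and 149. Of the 8 neighbours on chromosome 2, Solyc02g070990 was 26.7-fold higher in replicate 1, with 1330 and 48 counts, and Solyc02g070970 was 22.6-fold higher, with 2742 and 117 counts. Solyc02g070940, the member with the largest share of this group in green fruit, differed by 1.56-fold, with 20639 and 12760 counts. Solyc07g044860 differed by 1.04-fold and Solyc06g066620 by 1.08-fold. Solyc06g066640 went against this, with 242 and 293 counts and a leaf level 92.2 times that of green mesocarp. Over the 44 members the replicate ratio had a Spearman coefficient of 0.64 with the leaf level relative to green mesocarp, whose libraries are not part of the ratio. The 22 members with the higher leaf level relative to green mesocarp had a median replicate ratio of 3.87, and the other 22 a median of 1.28. Beside this, the summed TMM-scaled CPM of the cuticle genes was 2494 and 1819 in replicates 1 and 2 and that of the exocarp genes picked by the study 6750 and 7556. Their part in the difference was not tested.

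**Figure D4:**
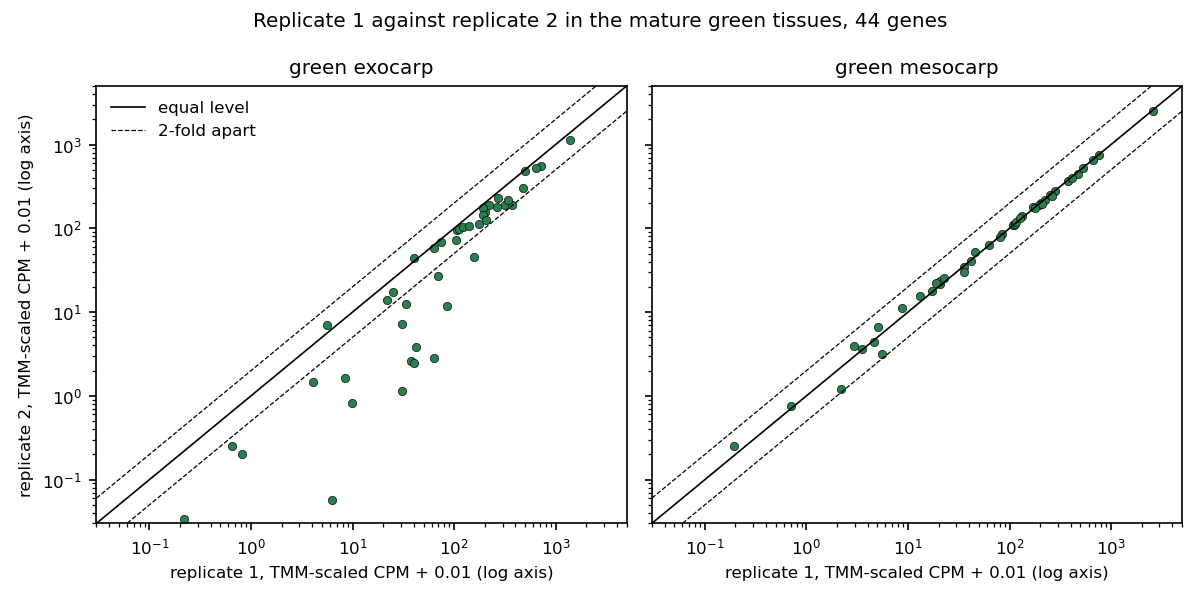
TMM-scaled CPM of the 44 genes in replicate 2 against replicate 1, on log axes, for green exocarp and green mesocarp. The solid line marks equal levels and the dashed lines a 2-fold difference. In green exocarp 17 genes fall below the lower dashed line, and in green mesocarp the genes follow the solid line.

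The result in green fruit turned on which exocarp library was kept. Without replicate 1, 30 members were lower and 1 was higher in green exocarp than in green mesocarp, beside 19.3% and 18% of all genes. Without replicate 2, 2 were lower and 12 were higher, beside 15.8% and 15.1%. All 12 of the latter were among the 30 lower ones of the former. The members' median log2 fold change was -0.73 without replicate 1 and 0.00 without replicate 2. In both of these fits the lone library was assumed to vary like those of the other tissues. Solyc03g005760 was lower in exocarp either way, by -1.18 (adjusted p = 0.000663) and -0.88 (adjusted p = 0.00398). Solyc06g069730 gave -6.07 and 0.85, Solyc02g070970 gave -2.87 and 1.62, and Solyc07g047850 gave -0.37 and 0.59.

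At the red ripe stage 16 members were higher and 2 were lower in exocarp than in mesocarp, beside 18.1% and 19.4% of all genes, and the median log2 fold change was 0.30. The median was 0.072 without red exocarp replicate 2, and 0.49 over the 35 members tested when only the tissues compared were fitted. Among the members called higher in exocarp the largest difference was that of Solyc08g013670, at a log2 fold change of 2.56 (SE 0.30, adjusted p = 0.000301). Its FPKM was 7.22 and 4.28 in red exocarp and 0.820 and 1.16 in red mesocarp. Solyc02g079950 followed with 23.7 and 40.6 FPKM in exocarp and 6.86 and 6.03 in mesocarp, at 2.33 (SE 0.23, adjusted p = 0.000124). Solyc06g084050 was higher by 2.17 (SE 0.41, adjusted p = 0.00381), with 1.59 and 2.09 FPKM in exocarp and 0.530 and 0.244 in mesocarp. Solyc09g014520 was at 66.3 and 68.4 FPKM in exocarp and 28.9 and 26.4 in mesocarp, which gave 1.30 (SE 0.10, adjusted p = 4.1e-05). Of the 5 most abundant members all were higher in red exocarp, by between 0.66 for Solyc03g005760 (SE 0.17, adjusted p = 0.0172) and 1.60 for Solyc10g006230 and Solyc02g070940.

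Other members were more abundant in red mesocarp. Solyc07g063600 was lower in red exocarp by -3.10 (SE 0.79, adjusted p = 0.0151), with 5 and 7 counts in exocarp and 68 and 44 in mesocarp. Solyc03g115900 was lower by -1.19 (SE 0.40, adjusted p = 0.0461), with 12 and 30 counts in exocarp and 67 and 36 in mesocarp. Altogether 21 members had both exocarp libraries above both mesocarp libraries and 13 had both below. The share of all genes with libraries apart was not counted, so these counts describe the members only. Only 2 of these 13 were called in the fit of all libraries. In the fits without replicate 1 or without replicate 2 of green exocarp, neither of which is part of this comparison, the same 12 members were lower in red exocarp, beside 21.8% and 22% of all genes, and 19 were higher, beside 20.5% and 20.4%. Of the 12, 5 belonged to the group of 8 on chromosome 2. Among them Solyc02g070970 held 2 and 0 counts in red exocarp and 51 and 28 in red mesocarp, which makes it at least 12.1-fold lower in exocarp. Solyc02g071000 held none in red exocarp and 44 and 14 in red mesocarp, at least 8.61-fold lower, or 5.03-fold without red mesocarp replicate 1, while Solyc02g070940 of the same group was higher in red exocarp by 1.60. DESeq2 called 17 members higher and 8 lower, beside 17.1% and 19.8% of all genes. The calls of both members named as lower were lost when 1 red library was left out, namely red exocarp replicate 1 or red mesocarp replicate 1, and 1 of them was lost when either leaf or green mesocarp library or one of the other red libraries was left out.

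The stage difference of the members was compared between the tissues by the difference of the green-to-red log2 fold changes, exocarp minus mesocarp. It was negative and called for 15 members, positive and called for none, beside 10.9% and 10.5% of all genes, and the members' median was -0.51. For these 15 the green level relative to the red level was smaller in exocarp than in mesocarp. At an unadjusted p under 0.05 in edgeR 20 members were negative and 1 was positive. The share of all genes at that threshold was not counted, so the shares above are no measure for it. The largest called values were those of Solyc06g084050, at -2.80 (SE 0.45, adjusted p = 0.0036), and Solyc08g013670, at -2.62 (SE 0.36, adjusted p = 0.00174). Solyc02g079950 followed, at -2.47 (SE 0.31, adjusted p = 0.0011). Solyc03g005760 gave -1.68 (SE 0.24, adjusted p = 0.00204), from 4.63 in exocarp and 6.31 in mesocarp. Members at the floor in a red tissue carry no fitted difference that can be read as a bound.

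The count of positive differences depended on green exocarp as well. Without replicate 1 of green exocarp 21 members were negative and 3 positive, beside 13% and 13.2% of all genes, and without replicate 2 these were 16 and 12, beside 10.9% and 10.9%. The members' median was -0.92 without replicate 1 and -0.42 without replicate 2. Of the 15 members called negative, 15 and 14 were called negative again in these fits. DESeq2 called 19 negative and 5 positive, beside 13% and 12.2% of all genes.

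**Figure D5:**
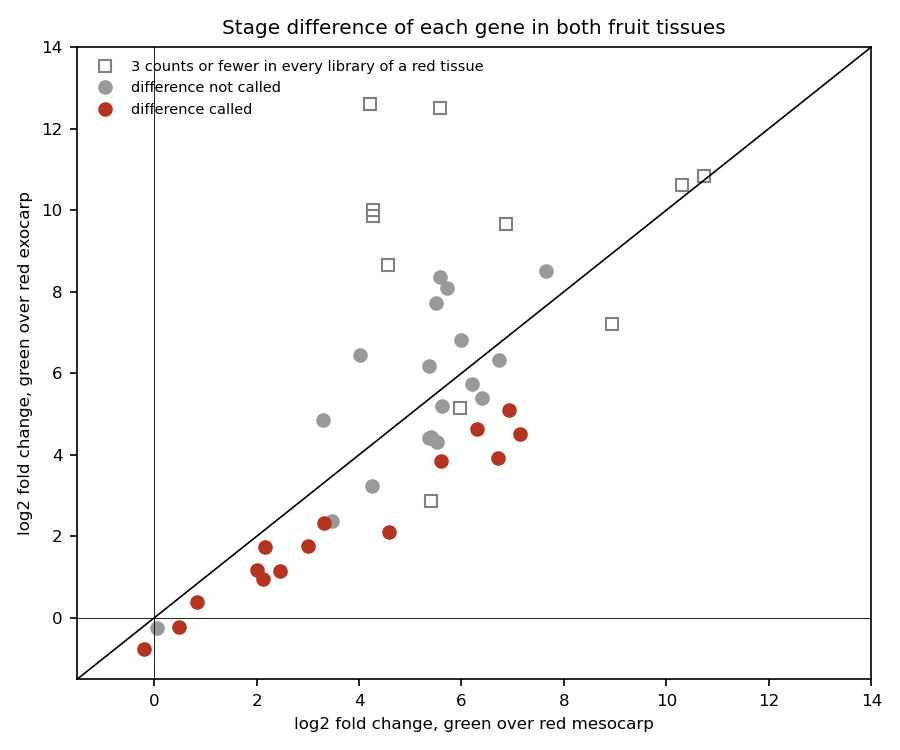
Fitted log2 fold change of each of the 44 genes, green over red, in exocarp against mesocarp. Red points are the 15 members whose difference between the tissues was called, and all of them lie below the line of equal change. Grey points were not called, and open squares mark genes with 3 counts or fewer in every library of a red tissue, whose position is not a measured fold.

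For comparison, 19 genes outside the set, listed from general knowledge for the enzyme of carbon fixation and its activase, thylakoid electron carriers and ATP synthase, photoprotection, chlorophyll synthesis and chloroplast regulation, were counted in the same fits. All 19 were lower than in leaves in each fruit tissue, beside 35.8% to 41.6% of all genes. Their medians were -3.94 in green exocarp, -3.60 in green mesocarp, -5.30 in red exocarp and -5.92 in red mesocarp. Between green and red fruit 12 were higher and 5 lower in exocarp, beside 32.2% and 29.7% of all genes, with a median of 1.63. In mesocarp 15 were higher and 2 lower, beside 31.8% and 28.2% of all genes, with a median of 2.17. These medians lay below the 4.97 and 5.41 of the 44 members, a difference that was not tested. The parts of the list differed. The gene listed as the photosystem II quenching subunit PsbS was lower in green than in red exocarp, at -2.22, and higher in green mesocarp, at 2.28. Of the 4 electron carrier and ATP synthase genes, 0 were higher and 2 lower in green exocarp, and 3 were higher in green mesocarp. All 5 genes of the carbon fixation enzyme and its activase were higher in green in both tissues. In red fruit 8 of the 19 were higher in exocarp than in mesocarp and 3 were lower, beside 18.1% and 19.4% of all genes. PsbS was among those higher, at 4.04. In green fruit 1 was higher and 5 were lower, beside 17.3% and 19% of all genes. The summed TMM-scaled CPM of the 19 in green exocarp was 2733 in replicate 1 and 2031 in replicate 2, against 2744 and 2743 in green mesocarp. The single chlorophyll breakdown gene that was listed was higher in red than in green fruit, by a log2 difference, green minus red, of -4.53 in exocarp and -5.58 in mesocarp.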

How the data were processed

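Poly(A) RNA-seq libraries of 5 tomato tissues, 2 per tissue, were sequenced by a company for the authors, who deposited raw counts per gene and FPKM values of the same genes. HISAT2 is named, without a version, in the submitters' processing notes; the counting tool, genome build and annotation are not given in the sources used here. Sample labels gave the groups and replicate numbers, and the study's methods gave the stages. The design text lists green exocarp 2 times and omits green mesocarp; the labels give both and were followed. Every column of both tables matched a label.

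Counts were filtered by tissue (filterByExpr, 22801 genes kept), scaled by TMM (factors 0.881 to 1.21) and fitted in edgeR (version 4.0.16, under R 4.3.3), whose quasi-likelihood test was applied to each contrast. All 10 libraries entered 1 model with 5 residual degrees of freedom, with a common biological coefficient of variation of 0.153. Benjamini-Hochberg adjustment ran over all genes tested, and an adjusted p under 0.05 was called. Log2 fold changes come from this fit. Levels of different genes were compared in the deposited FPKM values only, which rest on the authors' transcript lengths. A fold against a tissue with at most 3 counts in every library is a bound against 3 counts per library, scaled by TMM. Replicates of every tissue differed by more than sampling noise in a chi-square over genes. P-values rest on 1 spread per gene, pooled over the 2 libraries of each of the 5 tissues and drawn toward that of other genes. They do not measure the spread of the compared tissues alone. The test was checked on simulated counts. Tables and plots were made in Python 3.11.15 (matplotlib 3.10.9, scipy 1.17.1, numpy 2.4.6, pandas 2.3.3).

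The members and the comparison lists were chosen with earlier results of these data known. Named with values were the 5 members of highest mean FPKM, the largest called difference in each direction of each comparison, called members against the majority, and absent members; further members were chosen after their values were seen. RefSeq's table for assembly SLM_r2.1 held 41476 genes and matched 0 Solyc identifiers, so no symbols, coordinates or sequences were taken from it. The alternatives were DESeq2 1.42.0, its size factors or library totals in place of TMM, no filter, only the compared tissues, the replicate number as a block, an adjusted p under 0.01, and each library left out.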

Additional observations from a re-analysis of the deposited data

Results flagged for a closer look

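The green-to-red difference differed between exocarp and mesocarp for 15 of the 44 members. The test was the interaction contrast in edgeR with Benjamini-Hochberg adjustment. Over all genes 10.9% were called negative and 10.5% positive. DESeq2 called 19 members negative and 5 positive, and the count of positive ones turned on the green exocarp library kept. All 15 values of the edgeR fit, exocarp minus mesocarp on the log2 scale, were negative. They were -2.80 for Solyc06g084050, -2.62 for Solyc08g013670, -2.47 for Solyc02g079950, -1.83 for Solyc02g070940, -1.75 for Solyc10g006230 and -1.68 for Solyc03g005760. A middle group was formed by Solyc09g014520 at -1.31, Solyc06g054260 at -1.23, Solyc06g063370 at -1.16 and Solyc06g082950 at -1.002. The smallest were Solyc02g069460 at -0.84, Solyc02g065400 at -0.70, Solyc06g066620 at -0.56, Solyc03g120640 at -0.45 and Solyc06g083680 at -0.41.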

How the results depend on the processing

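The counts against leaves and the large majority higher in green than in red fruit stayed within 1.5 times of their reported values under every alternative run. For green exocarp against green mesocarp, the count higher was 0 with library totals, with only the tissues compared and at an adjusted p under 0.01, and 0 to 12 when a library was left out. The count lower was 5 with DESeq2 and with library totals, 1 with only the tissues compared and at an adjusted p under 0.01, and 1 to 30 when a library was left out. For red exocarp against red mesocarp, the count lower was 8 with DESeq2, 6 with only the tissues compared, 1 with the replicate block, 0 at an adjusted p under 0.01 and 0 to 12 when a library was left out. In the green-to-red comparisons the count lower was 1 to 3 in exocarp when a library was left out. In mesocarp it was 0 with DESeq2, DESeq2 size factors, library totals, no filter, the replicate block and an adjusted p under 0.01, and 0 to 1 when a library was left out. For the difference of stage changes, the count higher was 5 with DESeq2 and 0 to 12 when a library was left out. The block moved no other count by more than 1.5 times. Beyond the shares given with the results, the shares of all genes called under these settings were not counted. Among the members followed singly, signs turned for Solyc06g066620 between green and red mesocarp (0.19 with library totals) and, between green exocarp and green mesocarp, for Solyc02g070940 (-0.58 to 0.057 when a library was left out, the highest without replicate 2 of green exocarp) and Solyc07g047850 (-0.37 to 0.59, the lowest without replicate 1). The cause was not tested.

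The summed level relative to leaves was 10.001% in green mesocarp by CPM, 10.3% by FPKM, 7.497% by TMM-scaled CPM and 7.65% without Solyc03g005760. In red exocarp it was 1.52% by CPM and 1.22% by FPKM, and in red mesocarp 1.06% by CPM, 0.824% by FPKM and 1.10% without Solyc03g005760. Counted per read rather than per length, Solyc03g005760 held 18.5% of the sum in green exocarp, 28.5% in green mesocarp, 2.72% in red exocarp, 2.58% in red mesocarp and 6.42% in leaves. Same-numbered libraries of different tissues did not deviate together over genes, with correlations between -0.05 and 0.10. Whether they came from the same plants or fruits is not given in the labels. With 2 libraries per tissue these correlations cannot settle it, and the main fit used the replicate number as a name only. Depth limits the members at or under 3 counts in red fruit, whose folds are bounds. With 2 libraries per tissue, 1 library can decide a call, as in green exocarp.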
